A study of Mus musculus with 6 samples.

Results

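Slit1, Slit2, Slit3, Robo1, Robo2, Ntn1, Dcc, Unc5a, Unc5c and Unc5d, the Slit ligands with their Robo receptors and the netrin ligand with its Dcc and Unc5 receptors, were examined in mouse cerebral cortex with and without a Cux2 knock-out. These 10 genes were chosen by name, and every non-control probe that the array file names after one of them was taken, which gave 25 of 41174 probes. Of 27670 gene and clone names on the array they make up 10. The ko group held 3 male cortex samples with the genotype label Cux2-/- (samples 53, 48 and 54). The WT group held 3 male cortex samples titled WT (15, 62 and 16), which are called wild-type in 1 label and given the genotype Cux2+/- in another, a conflict the labels do not settle. Each sample was read on its own 1-colour Agilent array. The age of the animals, their strain and the build of the knock-out allele are not given in the sources used here, and no label states whether the samples came from different animals. The p-values therefore rest on the variation among these 6 arrays, which may be technical.

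Slits are secreted proteins that bind Robo receptors on growing axons and migrating neurons and mostly repel them. Netrin-1 attracts axons through Dcc and repels them through receptors of the Unc5 family, and Unc5 proteins also bind Flrt adhesion proteins. In the forebrain these cues are known for guiding callosal, corticofugal and thalamocortical axons and for steering interneurons and newborn projection neurons, largely before birth. Cux2 is a transcription factor with Cut repeats and a homeodomain that marks neurons of the upper cortical layers.

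The starts of the genes are shown for a ligand and a receptor of the same pair, because the compared genotypes differ in a transcription factor. The windows are from RefSeq on GRCm38.p6, read 5′ to 3′ on the gene's strand, from 250 bases before to 50 bases after the start, with each CG dinucleotide in capitals. The Slit2 window is chr5:47982905-47983204 on the + strand and the Robo1 window is chr16:72662899-72663198 on the + strand.
Slit2: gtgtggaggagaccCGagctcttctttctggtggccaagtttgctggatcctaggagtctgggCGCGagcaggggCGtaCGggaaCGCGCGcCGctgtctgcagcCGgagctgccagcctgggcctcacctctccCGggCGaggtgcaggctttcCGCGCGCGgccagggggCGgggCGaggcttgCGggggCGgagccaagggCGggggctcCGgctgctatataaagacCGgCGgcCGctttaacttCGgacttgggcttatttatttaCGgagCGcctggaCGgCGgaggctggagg
Robo1: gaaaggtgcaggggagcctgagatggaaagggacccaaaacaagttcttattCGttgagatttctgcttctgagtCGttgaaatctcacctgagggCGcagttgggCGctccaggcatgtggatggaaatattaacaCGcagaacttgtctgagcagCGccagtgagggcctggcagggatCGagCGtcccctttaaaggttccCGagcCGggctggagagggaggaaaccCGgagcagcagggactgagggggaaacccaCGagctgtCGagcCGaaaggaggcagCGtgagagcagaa
The Slit2 window holds 30 CG dinucleotides and the Robo1 window 15, and the median over 32851 promoter windows is 7. The count covered 8 windows for 6 of the genes (Slit2, Slit3, Robo1, Robo2, Unc5a and Unc5c, with 3 for Robo2). No window of Slit1, Ntn1, Dcc or Unc5d was counted. Any windows of the genes on a certain chromosome were removed before this count, while the 32851 windows include that chromosome. ATCGAT, a sequence that Cut-repeat proteins are known to bind and which reads the same on both strands, was in 0 of the 8 windows, against 0.925% of all windows. ATTGAT, searched on both strands and not overlapping with it, was also in 0 of the 8, against 7.54% of all. This says only that these letters are not in these windows.

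The series as a whole is described briefly. Between 58.5% and 68.1% of probes were well above background on ko arrays and between 62.7% and 72.7% on WT arrays. Of 25502 tested probes 33 passed an adjusted p of 0.05 in limma. All 8 markers of cortical projection neurons were well above background on all 6 arrays. Cux2 itself stood at -0.04, -0.05 and -0.01 in ko samples 53, 48 and 54 and at -0.04, 0.27 and 0.03 in WT samples 15, 62 and 16 on its brighter probe, a difference of -0.12 (limma, adjusted p = 0.838). A dimmer Cux2 probe went the other way, at 0.08 (adjusted p = 0.947). The sources used here do not say whether either probe falls in the deleted part of the gene, so they check nothing. Levels throughout are log2 signal with the 75th percentile of the same array subtracted, so 0 is a probe at that percentile and 1 unit is a 2-fold change. All 12 measured microglial and all 12 striatal markers were lower in ko samples (medians -0.43 and -0.51), as were 11 of 11 deep-layer and 7 of 8 astrocyte markers (medians -0.17 and -0.16), with 0 past the threshold in limma and 10, 3, 3 and 2 lower at an unadjusted p under 0.05, where 4.41% of all genes were. Microglial markers had a summed log2 level of 4.81 to 4.91 in ko samples and 5.22 to 5.53 in WT samples, and striatal markers 6.01 to 6.27 in ko samples and 6.06 to 6.88 in WT samples. Olfactory bulb markers deviated by 2.11 in ko sample 54 and by -0.78 to -0.06 in the other samples. Striatal markers deviated by 0.54 and 0.49 in WT samples 15 and 62 but by -0.24 in WT sample 16, beside -0.38 to -0.09 in ko samples. Fewer cells of a type and less RNA per cell cannot be told apart in these bulk samples, and what set these marker levels was not tested.

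Of the 10 genes, 7 had at least 1 probe bright enough to test, meaning well above background in all 3 samples of a group: the 3 Slit genes, both Robo genes, Unc5a and Unc5c. No tested probe differed between ko and WT cortex past the threshold. The 12 tested probes were all well above background on all 6 arrays, so none entered through 1 group alone. Of these 12, 7 stood higher and 5 lower in ko samples, with differences from -0.11 to 0.06 on the log2 scale and a median of 0.02, beside a median of -0.00039 over all tested probes. In limma 0 of the 12 passed an adjusted p of 0.05, where 0.129% of all tested probes did, and 0 reached an unadjusted p under 0.05, where 7.98% did. The ko and WT values overlapped for all 12, and the groups did not overlap for 13.1% of all tested probes. With only 12 probes of 7 genes, counts of 0 lie near these shares and set the members apart from the array in no way. Adjusted p ran from 0.838 to 0.999.

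**Figure D1:**
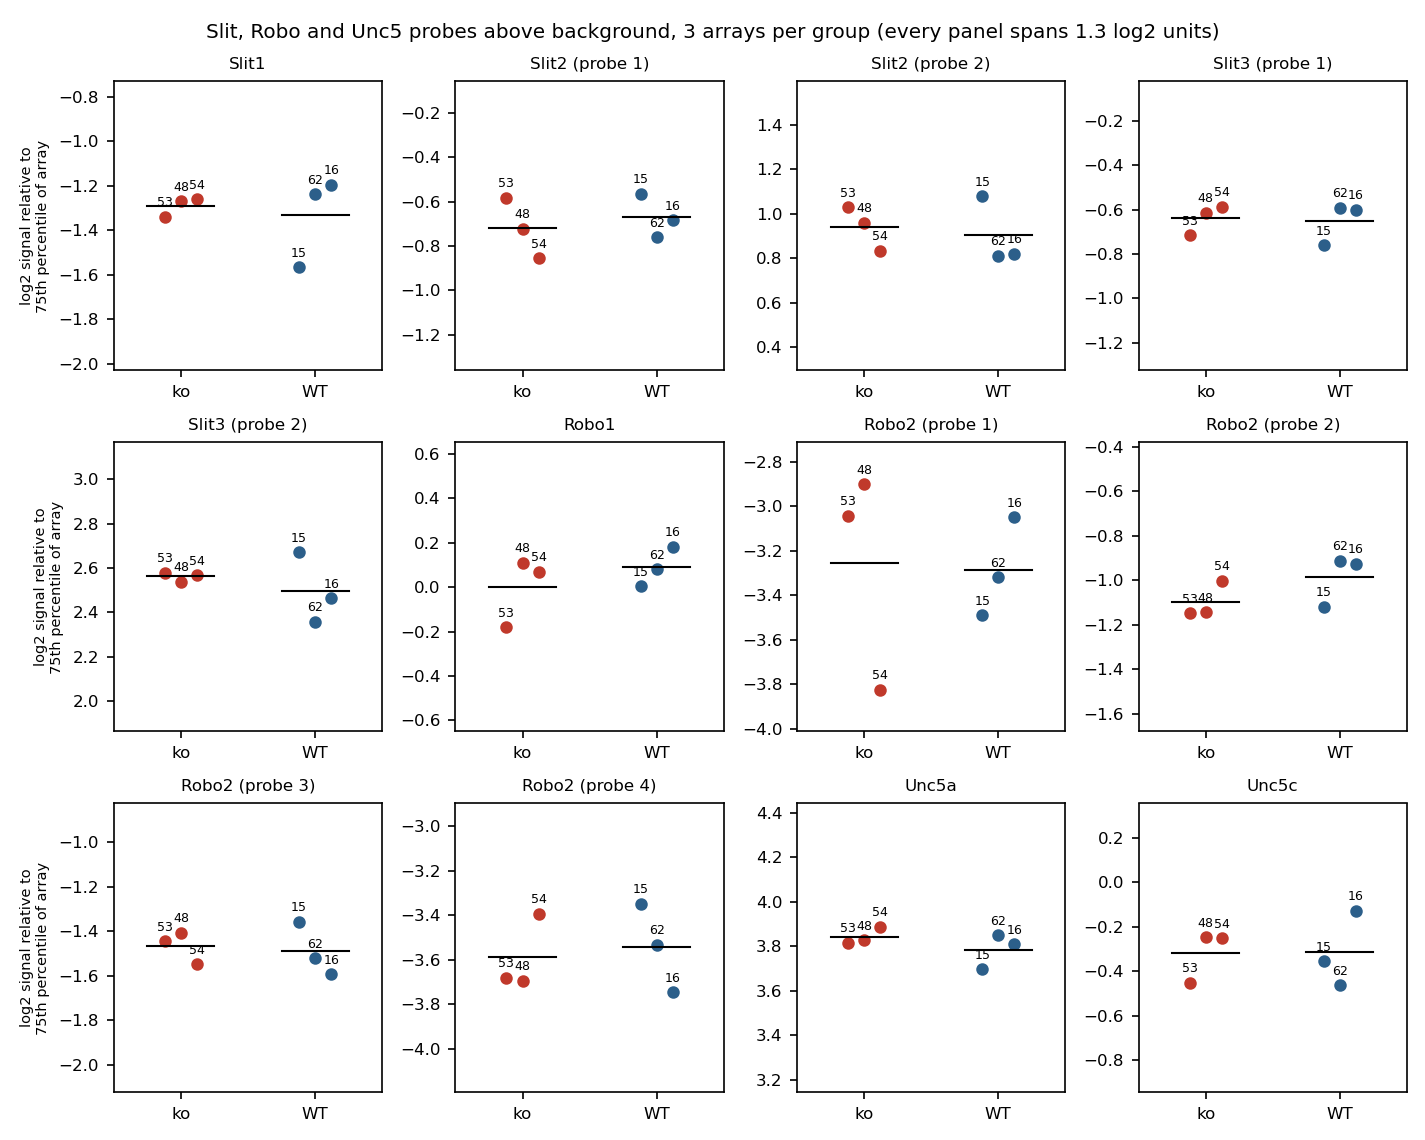
Levels of the 12 tested probes (log2 signal minus the 75th percentile of its array) in the 3 ko and 3 WT samples, 1 point per array with its sample number and a line at the group mean; every panel spans the same number of log2 units on its own scale. The groups overlap in every panel, and Robo2 probe 1 has the widest spread, with ko sample 54 at -3.83.

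Among the ligands, Slit1, which in rodents is made largely in the nervous system, stood at -1.34, -1.27 and -1.26 in ko samples 53, 48 and 54, against -1.57, -1.24 and -1.19 in WT samples 15, 62 and 16. WT sample 15 was the lowest of the 6, and the other WT samples lay just above all ko samples. The ko samples differed from the WT samples by 0.04, with a 95% interval from -0.23 to 0.32 (limma, adjusted p = 0.964), which corresponds to 0.851-fold to 1.25-fold. Slit2, the ligand best known for repelling commissural and cortical axons, was tested with 2 probes. Probe 2 (A_51_P496569), the brighter one, stood at 1.03, 0.96 and 0.83 in ko samples 53, 48 and 54 and at 1.08, 0.81 and 0.82 in WT samples 15, 62 and 16. Probe 1 (A_51_P496562) stood at -0.58, -0.72 and -0.86 in those ko samples and at -0.56, -0.76 and -0.68 in those WT samples. On both probes WT sample 15 was the highest and ko sample 53 came next, so the order of arrays was partly shared while the groups interleaved. The differences were 0.04 and -0.05, with intervals of -0.22 to 0.29 and -0.29 to 0.19 (limma, adjusted p = 0.967 and 0.949).

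Slit3, a Slit that is also made by muscle and vessel cells, had 2 tested probes. The brighter, probe 2 (A_51_P355765), stood at 2.58, 2.54 and 2.57 in ko samples 53, 48 and 54, against 2.67, 2.36 and 2.46 in WT samples 15, 62 and 16. The ko values lay within 0.05 of one another and inside the WT range. Probe 1 (A_51_P301809) ranged from -0.72 to -0.59 in ko samples and from -0.76 to -0.59 in WT samples. The differences were 0.06 and 0.01, with intervals of -0.17 to 0.30 and -0.19 to 0.22 (limma, adjusted p = 0.930 and 0.988). On the brighter probe the interval ends at 1.23-fold.

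Among the receptors, Robo1, which binds Slits and acts in callosal axons and interneurons, stood at -0.18, 0.11 and 0.07 in ko samples 53, 48 and 54, against 0.01, 0.08 and 0.18 in WT samples 15, 62 and 16. Only ko sample 53 lay below the WT range. The groups differed by -0.09, with an interval from -0.34 to 0.16 (limma, adjusted p = 0.901), and it was 0.0012 without ko sample 53. Robo2, which often acts beside Robo1, was tested with 4 probes. Its brightest, probe 2 (A_51_P418488), stood at -1.15, -1.14 and -1.002 in ko samples 53, 48 and 54, against -1.12, -0.91 and -0.92 in WT samples 15, 62 and 16. This gave the lowest unadjusted p of the 12 probes, 0.270, at a difference of -0.11 with an interval of -0.34 to 0.11 (limma, adjusted p = 0.838). Of the WT samples, 15 lay among the ko values. Without scaling between arrays this difference was 0.06, and Robo1 stood at 0.09, where the median over all tested probes itself lay at 0.17.

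The other Robo2 probes showed no common direction. Probe 3 (A_52_P290236), which the array file assigns to a transcript of isoform a, ranged from -1.55 to -1.41 in ko samples and from -1.59 to -1.36 in WT samples, a difference of 0.02 (limma, adjusted p = 0.975). Probe 4 (A_52_P597791) ranged from -3.69 to -3.39 in ko samples and from -3.75 to -3.35 in WT samples, a difference of -0.05 (adjusted p = 0.967). Probe 1 (A_51_P157612) stood at -3.04, -2.90 and -3.83 in ko samples 53, 48 and 54 and at -3.49, -3.32 and -3.05 in WT samples 15, 62 and 16. Sample 54 was the lowest of the 6 and sample 48 the highest, both of them ko. Its difference of 0.03 had the widest interval of the tested probes, -0.58 to 0.64, or 0.669-fold to 1.56-fold.

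Of the netrin receptors, Unc5a, a receptor for repulsion by netrin-1, stood at 3.82, 3.83 and 3.89 in ko samples 53, 48 and 54, against 3.70, 3.85 and 3.81 in WT samples 15, 62 and 16. It was the tightest of the tested probes, with an SD over all 6 arrays of 0.06, and WT samples 15 and 16 lay below all ko values while WT sample 62 lay among them. The groups differed by 0.06, with an interval from -0.13 to 0.25 (limma, adjusted p = 0.920), or 0.914-fold to 1.19-fold. Unc5c, known for guiding corticospinal and cerebellar projections, stood at -0.45, -0.25 and -0.25 in ko samples 53, 48 and 54, against -0.35, -0.46 and -0.13 in WT samples 15, 62 and 16. The WT samples held both the highest and the lowest value. The means were -0.32 ± 0.12 in ko samples and -0.31 ± 0.17 in WT samples (SD, n = 3 each), a difference of -0.0015 with an interval of -0.28 to 0.27 (limma, adjusted p = 0.999).

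**Figure D2:**
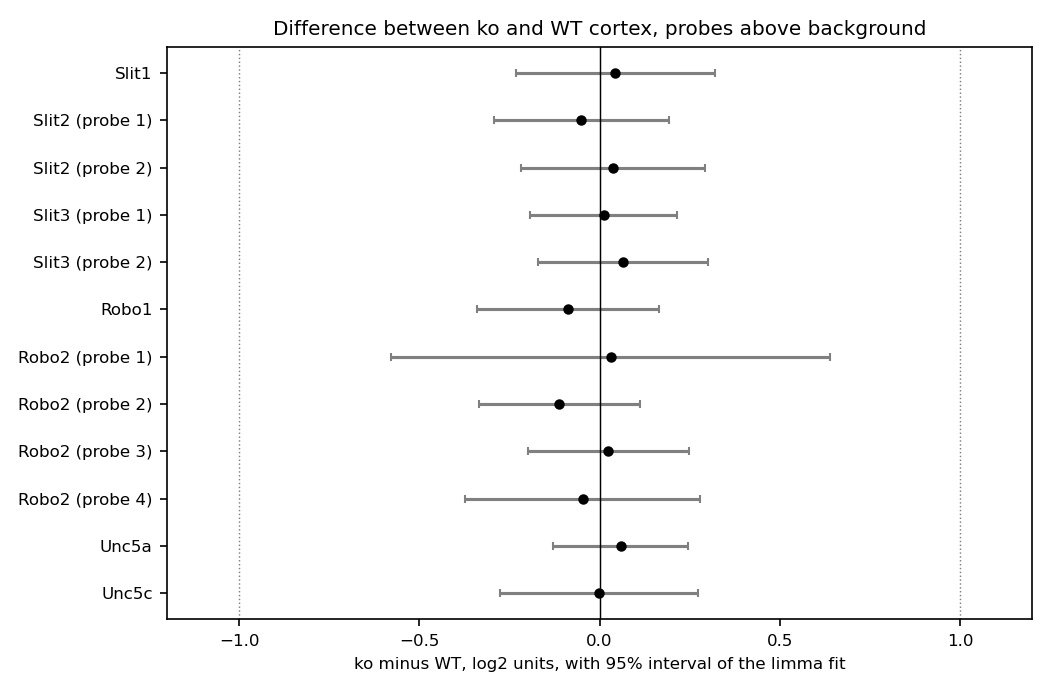
Difference between ko and WT samples for the 12 tested probes in log2 units, with the 95% interval of the limma fit; dotted lines mark a 2-fold change in either direction. Every interval includes 0, and the widest, for Robo2 probe 1, runs from -0.58 to 0.64.

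The 6 arrays lay on 2 slides, ko samples 48 and 54 with WT sample 15 on slide 1, and ko sample 53 with WT samples 62 and 16 on slide 2. For 10 of the 12 tested probes the difference took opposite signs within the slides, for Slit1 0.30 on slide 1 and -0.12 on slide 2, and for Robo1 0.08 and -0.31. Each such value sets 1 array of a genotype against 2 of the other. With slide as a block the 12 differences ran from -0.12 to 0.13, and the lowest unadjusted p was 0.376 (limma, lowest adjusted p = 0.913).

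The other 3 genes, Ntn1, Dcc and Unc5d, had no probe that passed the filter on dim signals. Ntn1, which encodes netrin-1, stood on its brighter probe (A_52_P401473) at -5.20, -5.52 and -5.44 in ko samples 53, 48 and 54, against -5.20, -5.71 and -5.30 in WT samples 15, 62 and 16, and was well above background in ko sample 54 and WT sample 16 only. Its other probe was well above background on no array. Dcc, the receptor for attraction by netrin-1, stood on its single probe at -5.73, -5.34 and -6.89 in ko samples 53, 48 and 54, against -7.52, -6.99 and -6.09 in WT samples 15, 62 and 16. It was well above background in WT sample 16 alone, although that array did not carry its highest value, and the groups overlapped. Unc5d, known as a marker of migrating neurons destined for the upper layers in the developing cortex, stood on its brighter probe (A_52_P140686) at -4.92, -4.97 and -5.02 in ko samples 53, 48 and 54, against -4.89, -5.15 and -4.61 in WT samples 15, 62 and 16. Of these arrays, 1 ko and 2 WT arrays held it well above background. On the other Unc5d probe (A_51_P220665) ko sample 48 stood at -4.68 and the remaining arrays between -6.72 and -6.41. That probe was well above background in ko sample 48 and WT sample 16 only. The values of both groups overlapped on both probes, and no fold is given where both groups are dim.

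In all, 13 of the 25 probes were dim, among them 4 of Slit2, 2 of Robo2, 1 of Robo1 and 1 of Unc5c, so genes with a tested probe also had dim ones. Of the 13, 6 were well above background on no array and 7 on some. Detection differed between arrays: 6 of the 13 were well above background in WT sample 16, whose dimmest probe well above background stood at -6.86. On the other arrays the count was 0 in ko sample 53, 1 in ko sample 48, 2 in ko sample 54, 1 in WT sample 15 and 1 in WT sample 62, with that floor between -6.16 and -4.82.

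**Figure D3:**
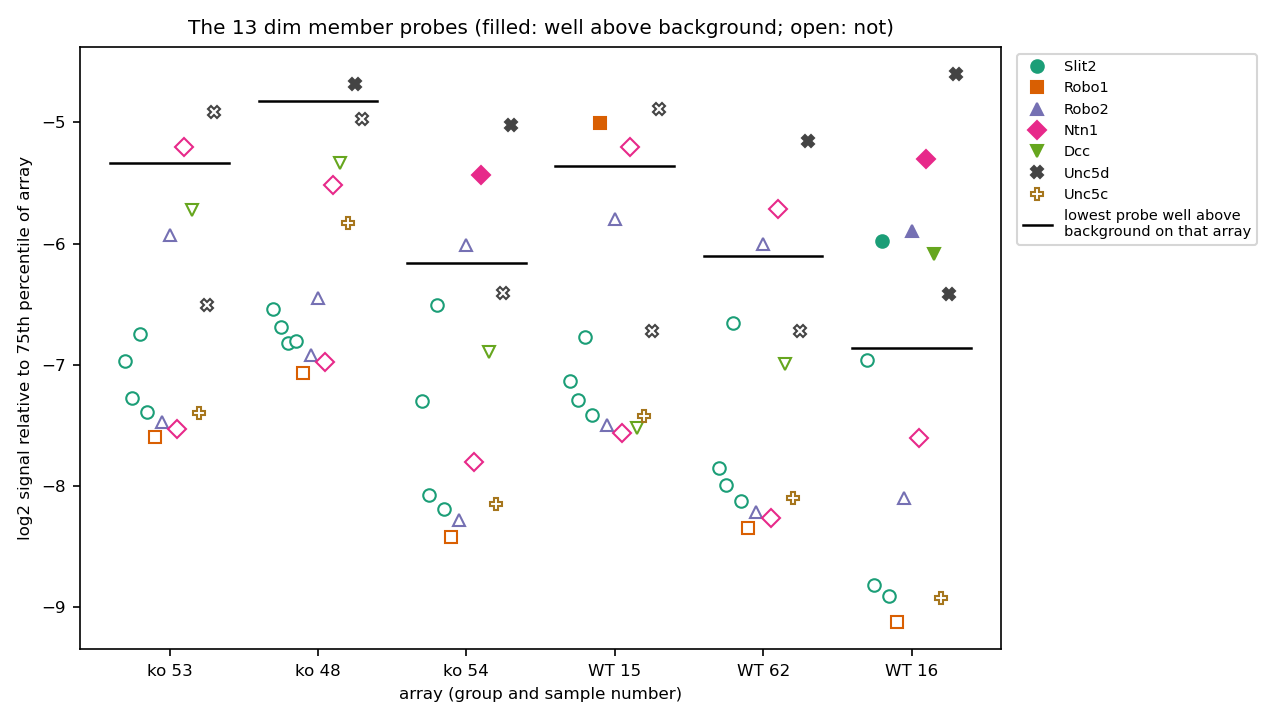
Levels of the 13 dim probes (log2 signal minus the 75th percentile of its array) by array, filled where the probe was well above background and open where it was not; the bar on each array marks its lowest probe well above background. WT sample 16 has the lowest bar, at -6.86, and 6 filled points, while ko sample 53 has 0.

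Other genes of the same pathways were taken from 2 lists. Of 20 further ligands and receptors 19 were tested, the exception being the netrin gene Ntn4 (named after its values were seen). Of the 19, 14 were higher and 5 lower in ko samples, with a median of 0.03, beside 8240 higher and 8882 lower and a median of -0.01 over 17122 genes. All but Ntng2 (also named after its values were seen), 18 genes, were well above background on all 6 arrays. Ntng2, at -0.30, was so on 1 ko array and 3 WT arrays. It passed the filter through the WT samples alone, so its place among the lower genes is no support for a difference. In limma 0 of the 19 passed, where 0.128% of all genes did, while 2 higher and 1 lower reached an unadjusted p under 0.05, where 3.89% and 4.41% of all genes did (8.3% in both directions together). Of the 36 intracellular partners, all tested, 18 were higher and 18 lower with a median of 0.01, and 34 were well above background on all 6 arrays. In limma 0 passed, and 1 higher and 1 lower reached an unadjusted p under 0.05. The lower gene, Srgap1, passed the filter through the WT samples alone, where it stood higher, so its place in this count is no support for a difference.

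**Figure D4:**
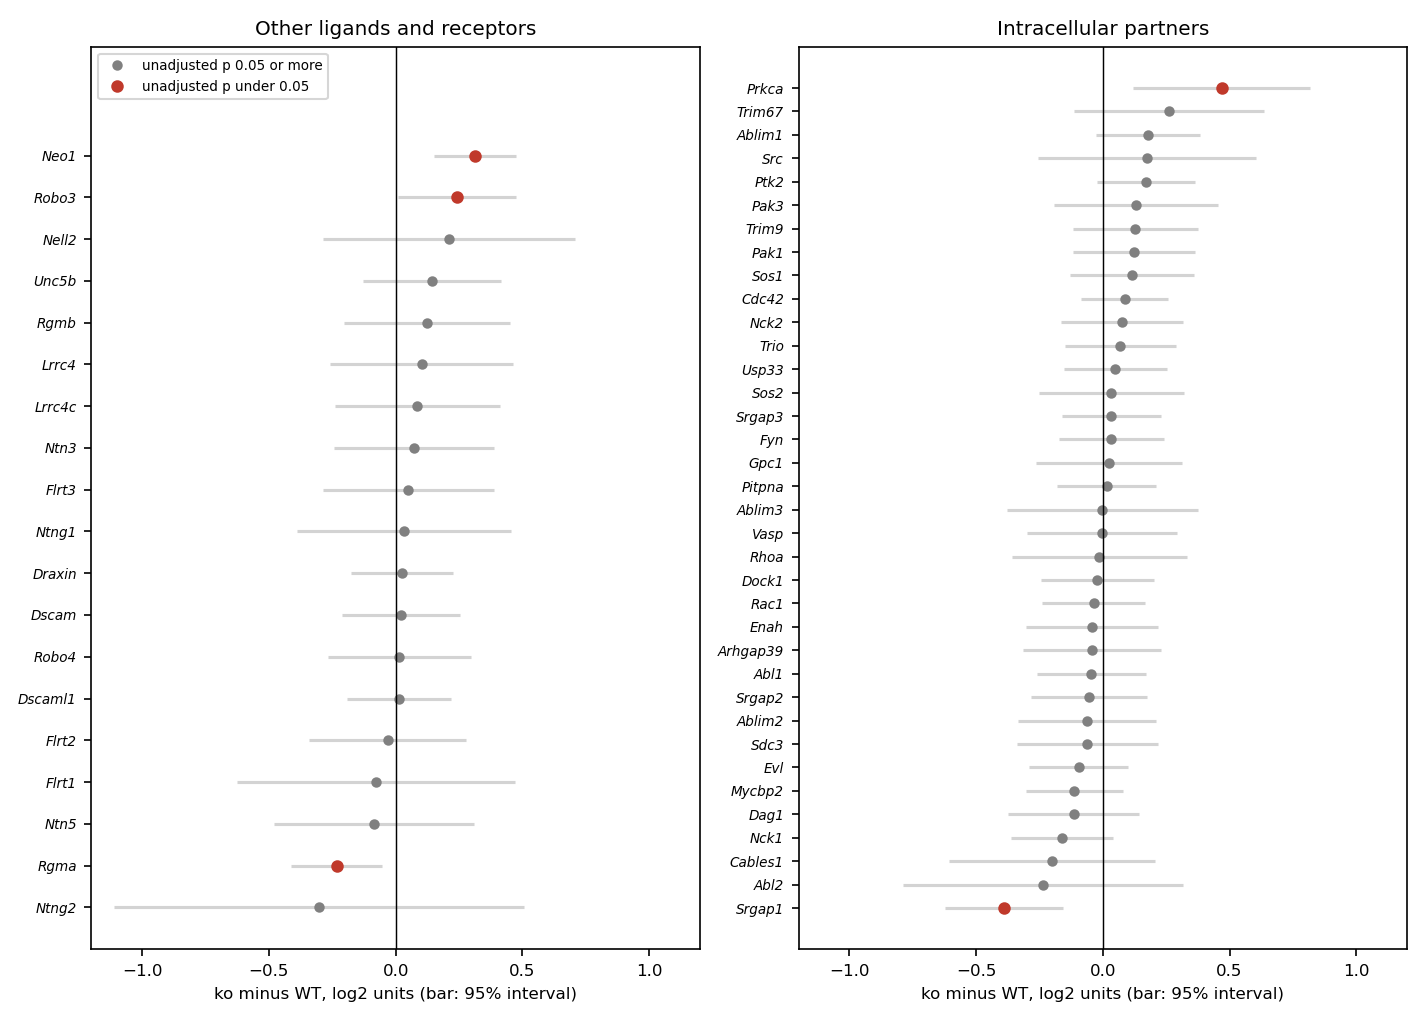
Difference between ko and WT samples in log2 units, with 95% intervals of the limma fit, for 19 further ligands and receptors and 36 intracellular partners; red points have an unadjusted p under 0.05. Neo1 (0.31) and Robo3 (0.24) lie to the right and Rgma (-0.23) to the left, Prkca (0.47) and Srgap1 (-0.39) are the red points of the second panel, and none passed after adjustment. Srgap1 and, in the first panel, Ntng2 passed the filter on dim signals through the WT samples alone.

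Neo1, or neogenin, is the relative of Dcc that binds netrins and repulsive guidance molecules, and Dcc was dim. Its brightest probe (A_51_P476728) stood at 1.06, 1.09 and 1.06 in ko samples 53, 48 and 54, against 0.76, 0.75 and 0.76 in WT samples 15, 62 and 16. All ko values lay above all WT values, as for 6.37% of all genes, with SDs of 0.017 in ko samples and 0.0085 in WT samples. The difference was 0.31 (SE 0.07) with an interval of 0.15 to 0.48, and it did not pass (limma, unadjusted p = 0.00295, adjusted p = 0.272). The other tested Neo1 probes stood at 0.44 (SE 0.09, adjusted p = 0.251) and 0.60 (SE 0.17, adjusted p = 0.453), each with all 3 ko samples above all 3 WT samples. Within the slides the brightest probe differed by 0.32 and 0.31.

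Rgma, repulsive guidance molecule A and a ligand of neogenin, stood at 3.55, 3.63 and 3.50 in ko samples 53, 48 and 54, against 3.81, 3.80 and 3.76 in WT samples 15, 62 and 16. All ko values were below all WT values, as for 7.23% of all genes. The difference was -0.23 (SE 0.07; limma, unadjusted p = 0.0183, adjusted p = 0.514), and -0.06 without scaling. The microglial, striatal, deep-layer and astrocyte markers described above also separate or shift between the groups, and their part in the values of Neo1 and Rgma was not tested.

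**Figure D5:**
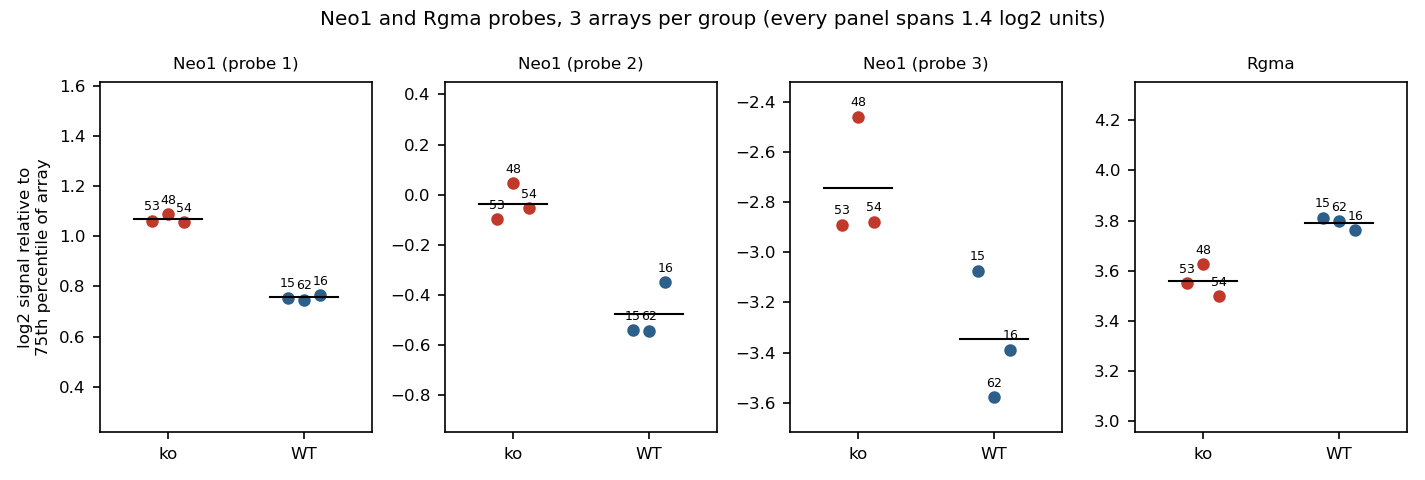
Levels of the 3 tested Neo1 probes and of Rgma (log2 signal minus the 75th percentile of its array) in the 3 ko and 3 WT samples, 1 point per array with its sample number and a line at the group mean. The ko points lie above the WT points for all 3 Neo1 probes (brightest probe 1.07 against 0.76 on average) and below them for Rgma (3.56 against 3.79).

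Robo3, a Robo of commissural axons that binds Nell2, stood at 2.13, 1.90 and 2.07 in ko samples 53, 48 and 54, against 1.88, 1.80 and 1.69 in WT samples 15, 62 and 16. All ko values lay above all WT values, as for 6.37% of all genes, and the difference was 0.24 (SE 0.10; limma, adjusted p = 0.612). On a second Robo3 probe the groups overlapped, with ko sample 48 at 1.19 and WT sample 15 at 1.25, and the difference was 0.20 (adjusted p = 0.715). Unc5b, the Unc5 receptor of vessels, ranged from 0.52 to 0.69 in ko samples and from 0.32 to 0.67 in WT samples, a difference of 0.14 (adjusted p = 0.835). It was 0.25 without WT sample 62 and 0.075 without WT sample 15, neither past the threshold (limma, adjusted p = 0.717 and 0.842). Of the intracellular partners, Srgap1, which binds Robo1, stood at -4.65, -4.53 and -4.73 in ko samples 53, 48 and 54, against -4.38, -4.17 and -4.19 in WT samples 15, 62 and 16. It was well above background in 2 of 3 ko samples, so it was tested through the WT samples alone. Its difference of -0.39 (SE 0.10; limma, adjusted p = 0.362) became 0.41 with normexp background correction. Prkca, protein kinase C alpha, stood at 0.47 (SE 0.15, adjusted p = 0.496). Ptk2, the focal adhesion kinase that binds Dcc, and Ablim1, an actin-binding LIM protein, stood at 0.17 and 0.18, and the adaptor Nck1 at -0.16, with adjusted p from 0.679 to 0.717.

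The genes whose pattern over the 6 arrays was most like that of the 2 most variable members among the 7 with a tested probe, by brightest probe, are given as a description. The measure is the root mean square difference of log2 values centred on each gene's mean, over 17075 genes with a value on every array. For Slit1 (SD 0.13) the nearest were Frrs1l, Kri1 and Nfyc, at 0.029, 0.031 and 0.032. For Unc5c (SD 0.13) they were Dnah5, Syt7 and Dnase1l1, at 0.030, 0.030 and 0.039.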

How the data were processed

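The scanner output came from Agilent Feature Extraction 9.1.3.1, per the file headers. Its processed signal is a deposited intensity after background subtraction and spatial detrending, in which dim spots carry a surrogate value. The mean signal and local background are intensity values as measured, per the file headers. A series table of log2 values was deposited too, and its columns share 1 distribution (median 6.76) and rank as the processed signal. Its log2 scale is inferred from that comparison, and its centring is not stated.

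Control spots (1639 of 45018) and 120 spot values with an outlier flag were left out, 0 spots were saturated, and spots of a probe were averaged. From the processed signal, log2 values less the 75th percentile of their array were fitted in limma 3.58.1 (lmFit, eBayes; R 4.3.3) for probes well above background on all 3 arrays of a group, with at least 2 values per group, and Benjamini-Hochberg adjustment over 25502 probes. The filter uses the group labels. Intervals are 95% intervals of that fit, and the number of arrays limits the precision. For Gpc1 of the second pathway list the fit dropped ko sample 53, which carried an outlier flag.

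Members were matched by name in the array files. Other genes were named by accession, symbol or synonym through a RefSeq table of GRCm38.p6, and the brightest probe stood for a gene. Named genes are all members, Cux2, up to 6 genes of lowest p per pathway list and the nearest patterns. The members and lists were chosen with earlier results of these data known. The marker lists also covered upper-layer neurons, interneurons, oligodendrocytes, vessel cells, meninges, choroid plexus, hippocampus and thalamus, whose medians lay between -0.09 and 0.11. Of 12 upper-layer markers 8 were lower and 4 higher in ko samples. In limma 2 were lower and 0 higher at an unadjusted p under 0.05, where 4.41% and 3.89% of all genes were. Choroid plexus markers deviated by -0.89 in WT sample 15, 0.88 in WT sample 62 and -0.65 to 0.57 in ko samples. The procedure was tested on simulated data. Python 3.11.15 with matplotlib 3.10.9 drew the figures.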

Additional observations from a re-analysis of the deposited data

How the results depend on the processing

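Over 15 alternatives to scaling, background correction, filter, array weights, slide, deposited values and arrays used, 0 member probes and 0 pathway genes passed the adjusted threshold of limma. Unadjusted p in limma was under 0.05 for 0 member probes in each and between 0 and 7 pathway genes. The 0 pathway genes came with normexp, where 149 of 25502 probes on the whole array were under 0.05. The 7 came without WT sample 15, where 2951 of 27386 were. With array weights 2558 of 25502 probes were under 0.05, but only 4 pathway genes. Whether the pathway count follows that of the array was not tested. Over all probes the 33 calls became 0 with normexp background correction (149 at an unadjusted p under 0.05), 2 without a filter on dim probes and 15 with slide as a block, and leaving out 1 sample gave 2 to 62 (62 without ko sample 53, 13 without ko sample 54, 2 without WT sample 15 and 2 without WT sample 16).

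The members' small differences changed sign in 17 of 105 tested alternatives. Without scaling, which moved the median of all tested probes by 0.17, Robo1 stood at 0.086, Robo2 at 0.062, Unc5c at 0.17 and Nck1 at 0.015. With normexp Slit3 stood at -0.0088, Unc5a at -0.051, Unc5c at 0.031 and Srgap1 at 0.41. Array weights gave -0.0022 for Slit1 and 0.010 for Unc5c, and median scaling gave -0.00040 for Slit2. Leaving out 1 sample gave -0.074 to 0.11 for Slit1, -0.0093 to 0.13 for Slit2, -0.0054 to 0.15 for Slit3, -0.14 to 0.0012 for Robo1, -0.18 to -0.08 for Robo2, 0.01 to 0.09 for Unc5a and -0.075 to 0.092 for Unc5c. The causes were not tested. Over all alternatives the lowest adjusted p of a member was 0.486.

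Neo1 kept its sign in all 15 alternatives, which were added after seeing the data, at 0.25 to 0.49 (adjusted p from 0.219 to 0.988), and so did Rgma, at -0.31 to -0.06. Robo3, Unc5b, Prkca, Ptk2 and Ablim1 kept theirs in all 15 too, while Nck1 changed sign in 1. Srgap1 changed sign in 1 of 14, as it was not tested where all 6 arrays had to be well above background. The 0.49 of Neo1 and the -0.06 of Rgma came without scaling, where the median of all tested probes lay at 0.17. No paired analysis was possible because the groups share no sample number. No probe of Ntn1, Dcc or Unc5d passed the filter on dim signals with all 6 arrays. Without WT sample 15, 1 further member probe (of Unc5d) passed it, and 0 of the 13 then tested had an unadjusted p under 0.05. Without a filter all 25 were fitted, but dim values are partly surrogates and bound no difference.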
